A study of Arabidopsis thaliana with 6 samples.

Results

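The borders of pericentromeric heterochromatin in Arabidopsis thaliana are the 10 stretches where gene-rich chromosome arms give way to the dense, transposon-rich chromatin around the centromeres. They were chosen by position alone, as the sequence within 500 kb on either side of the limits that the study set for dense pericentromeric heterochromatin on its 5 chromosomes. On the left of chromosome 4 the heterochromatic knob ends close to the limit, so that border has an arm side of only 150 kb. The borders span 9650 kb. Of their 32167 windows of 300 bp, 21037 (65.4%) were covered in every library, out of 278507 covered windows in the genome. The arm sides held 10111 of the covered windows and the centromere sides held 10926. In TAIR10 coordinates the borders of chromosome 1 are chr1:11650001-12650000 and chr1:17400001-18400000, and those of chromosome 2 are chr2:500001-1500000 and chr2:6850001-7850000. The borders of chromosome 3 are chr3:10100001-11100000 and chr3:15850001-16850000, and those of chromosome 4 are chr4:2400001-3050000 and chr4:5900001-6900000. Those of chromosome 5 are chr5:9050001-10050000 and chr5:14550001-15550000.

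Cytosine methylation in plants is named by the bases that follow the cytosine, and CHH sites (H being A, C or T) carry no mirror-image cytosine on the other strand from which the mark could be copied after replication. One route to CHH methylation is RNA-directed DNA methylation, in which RNA polymerase IV (Pol IV) and the RNA-dependent RNA polymerase RDR2 make double-stranded RNA that is diced into short interfering RNAs, and these direct the methyltransferase DRM2 to matching DNA. Another route uses the methyltransferase CMT2, which works without small RNAs and is known for long transposons of dense heterochromatin. The borders are where gene-rich and transposon-rich chromatin meet.

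The study asked what the C-terminal domain of NRPD1, the largest subunit of Pol IV, contributes to this pathway. Whole-genome bisulfite sequencing was done on 6 libraries from above-ground tissue of plants 2.5 weeks old, kept in soil under long days (16 h light, 8 h dark), with 2 libraries in each of 3 groups. All plants were of ecotype Col-0 and carried the nrpd1-3 mutation, a null allele with a T-DNA insertion. The first group had no transgene (nrpd1-3), the second expressed NRPD1 without its C-terminal domain (NRPD1ΔCTD, nrpd1dDeCL in the sample titles), and the third expressed full-length NRPD1. Both transgenes carried a FLAG epitope tag at the C-terminus, NRPD1ΔCTD was built from a genomic clone with the gene's own promoter, and transgenic plants were selected with Basta herbicide. The sample titles of the full-length group read NRPE1FL while their transgene field reads NRPD1FL, and the transgene field was followed. Wild-type Col-0 was not analysed here, and losses are therefore measured against the full-length line. The sources describe the libraries of a group as biological replicates without naming separate families or transgene insertions, so the tests measure the spread between these samples.

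The unit of measurement was the CHH level, the percentage of reads at CHH cytosines that were methylated, taken over windows of 300 bp with at least 10 cytosines, each read at least 5 times, in each of the 6 libraries. The libraries listed between 12654903 and 13819039 CHH cytosines and had a mean coverage of 15.2 to 16.3 reads per cytosine. Each library had at least 5672822 reads on each side of the borders, and the Wilson 95% interval of any such level was at most 0.0417 points wide, which covers counting error only. One nrpd1-3 library stood apart from the others. In coding exons of the chromosome arms, where CHH methylation is low, nrpd1-3 replicate 1 read 1.27% while the other 5 libraries read 0.717% to 0.860%. At the borders it was the higher of its pair in 11811 windows and the lower in 7910, against 9875 and 9552 for NRPD1ΔCTD and 9906 and 9753 for full-length NRPD1. The losses of the arm and centromere sides are therefore also given without it, while most other levels of nrpd1-3 include it.

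Sequences of 6 border windows are shown because they carry the range of responses described further on. They are the window with the largest loss on any arm side, the window with the largest loss on any centromere side, one in which NRPD1ΔCTD regained nearly all of its methylation, one in which it regained little, and a pair in which nrpd1-3 kept a high level. Each is the top strand from 5′ to 3′ in the RefSeq TAIR10.1 sequence, with TAIR10 coordinates. Capitals mark the CHH cytosines that had a level of at least 25% in the pooled full-length libraries, printed as C on the top strand and as G where the cytosine is on the bottom strand.
Largest arm-side loss, chr3:10514101-10514400: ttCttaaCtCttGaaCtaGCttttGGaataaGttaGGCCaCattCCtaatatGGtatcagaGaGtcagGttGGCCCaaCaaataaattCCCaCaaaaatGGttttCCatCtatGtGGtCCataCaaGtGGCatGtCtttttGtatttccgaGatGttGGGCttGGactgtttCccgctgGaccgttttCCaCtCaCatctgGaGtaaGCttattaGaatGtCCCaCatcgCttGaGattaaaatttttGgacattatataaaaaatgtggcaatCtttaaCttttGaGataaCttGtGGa
Largest centromere-side loss, chr3:16066801-16067100: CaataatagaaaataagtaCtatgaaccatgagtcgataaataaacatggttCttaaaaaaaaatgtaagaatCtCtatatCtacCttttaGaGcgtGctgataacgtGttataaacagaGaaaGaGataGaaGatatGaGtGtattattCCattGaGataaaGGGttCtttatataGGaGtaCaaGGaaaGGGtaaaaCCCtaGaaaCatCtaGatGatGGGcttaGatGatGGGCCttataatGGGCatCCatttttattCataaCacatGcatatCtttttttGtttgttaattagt
Nearly full regain, chr5:9189001-9189300: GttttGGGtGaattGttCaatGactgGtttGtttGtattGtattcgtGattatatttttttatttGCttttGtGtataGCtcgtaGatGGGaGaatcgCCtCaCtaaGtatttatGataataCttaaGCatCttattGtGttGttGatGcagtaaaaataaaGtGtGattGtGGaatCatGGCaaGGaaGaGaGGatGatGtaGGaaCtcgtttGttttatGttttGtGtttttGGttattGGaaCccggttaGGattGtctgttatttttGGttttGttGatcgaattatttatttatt
Little regain, chr2:904501-904800: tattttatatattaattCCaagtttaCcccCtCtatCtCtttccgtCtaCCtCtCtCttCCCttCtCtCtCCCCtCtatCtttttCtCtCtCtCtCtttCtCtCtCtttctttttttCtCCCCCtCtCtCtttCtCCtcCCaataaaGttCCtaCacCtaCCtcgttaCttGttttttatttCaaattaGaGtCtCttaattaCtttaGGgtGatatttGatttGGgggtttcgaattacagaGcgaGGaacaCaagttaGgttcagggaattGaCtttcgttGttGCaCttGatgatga
Kept in nrpd1-3, chr4:2895601-2895900: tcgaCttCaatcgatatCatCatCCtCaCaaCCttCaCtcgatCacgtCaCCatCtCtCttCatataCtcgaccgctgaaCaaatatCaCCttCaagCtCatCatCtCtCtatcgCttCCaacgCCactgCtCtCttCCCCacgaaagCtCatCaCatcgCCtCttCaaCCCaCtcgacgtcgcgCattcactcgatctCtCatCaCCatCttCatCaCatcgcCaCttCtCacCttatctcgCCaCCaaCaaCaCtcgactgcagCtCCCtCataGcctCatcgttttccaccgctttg
Kept in nrpd1-3, chr1:12017101-12017400: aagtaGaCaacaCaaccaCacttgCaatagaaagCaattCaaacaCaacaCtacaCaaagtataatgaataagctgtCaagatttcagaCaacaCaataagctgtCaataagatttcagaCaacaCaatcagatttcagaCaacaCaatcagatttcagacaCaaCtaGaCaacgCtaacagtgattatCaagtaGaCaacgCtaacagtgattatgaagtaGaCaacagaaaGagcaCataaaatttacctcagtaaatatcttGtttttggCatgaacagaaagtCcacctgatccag

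In the first of these sequences 87 of the 93 cytosines listed for full-length NRPD1 reached 25%, against 0 of 63 in nrpd1-3 and 78 of 93 with NRPD1ΔCTD. In the second the counts were 65 of 82, 0 of 50 and 60 of 77. Among the cytosines that were read in each group, none of these reached the mark in the mutant and most did with NRPD1ΔCTD, while fewer positions were listed in the mutant than in the other groups. In the window at chr5:9189001-9189300 all 76 listed cytosines reached 25% with full-length NRPD1 and 75 of 76 did so with NRPD1ΔCTD, and nrpd1-3 still had 17 of 29. In the window at chr2:904501-904800 the full-length count was 82 of 96, while NRPD1ΔCTD had 20 of 67 and nrpd1-3 had 0 of 28. The window at chr4:2895601-2895900 went the other way, with 85 of 97 with full-length NRPD1 and 91 of 99 in nrpd1-3, and 84 of its 85 capitals were on the top strand. In the window at chr1:12017101-12017400 the counts were 34 of 61 with full-length NRPD1, 28 of 55 in nrpd1-3 and 30 of 62 with NRPD1ΔCTD.

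The first comparison was how much CHH methylation the borders lost without Pol IV. Over all border reads the level was 7.63% and 6.89% in the 2 nrpd1-3 libraries, 8.53% and 8.09% with NRPD1ΔCTD, and 9.08% and 8.73% with full-length NRPD1. No library of one group overlapped those of another, and NRPD1ΔCTD lay between. The group values were 7.26% ± 0.527 (SD, n = 2), 8.31% ± 0.307 and 8.91% ± 0.249. The nrpd1-3 mean minus the full-length mean was -1.65 points, so by this measure most border CHH methylation was still there without Pol IV. Reads were not spread over the windows alike in the groups, as given below with the window tests. In every comparison of 2 libraries with 2 in these data the smallest p that a two-sided exact permutation test can give is 0.33, and the 3 differences at the borders had that value.

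In the level over all reads the losses on the arm side and on the centromere side were of like size, which did not hold when windows were weighted equally. On the arm side the level was 5.97% and 5.20% in nrpd1-3, 6.89% and 6.46% with NRPD1ΔCTD, and 7.38% and 7.01% with full-length NRPD1. On the centromere side it was 8.82% and 8.11%, 9.69% and 9.27%, and 10.3% and 9.97%. The groups did not overlap on either side. The nrpd1-3 mean minus the full-length mean was -1.61 points on the arm side and -1.67 points on the centromere side. Without nrpd1-3 replicate 1 these differences were -1.99 and -2.03 points, and without replicate 2 they were -1.22 and -1.32 points. After the coding-exon level of the same library was subtracted, an alternative chosen after seeing the data, they were -1.76 and -1.82 points.

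All 3 groups kept the rise in CHH level from the arm side to the centromere side. Centromere side minus arm side was 2.84 and 2.91 points in nrpd1-3, 2.81 and 2.80 points with NRPD1ΔCTD, and 2.92 and 2.96 points with full-length NRPD1. The full-length values were the highest, but all 6 lay between 2.80 and 2.96 points, and the exact permutation p was 0.33 for each pair of groups. With every window given equal weight the groups were further apart, with a rise of 1.72 points in nrpd1-3, 2.02 with NRPD1ΔCTD and 2.23 with full-length NRPD1. In that weighting the levels were 2.43% and 2.00% on the arm side and 4.16% and 3.71% on the centromere side in nrpd1-3, and 3.49% and 3.44% against 5.72% and 5.67% with full-length NRPD1. The difference between these groups was -1.25 points on the arm side (-1.50 to -1.01 over pairs of libraries) and -1.76 points on the centromere side (-2.02 to -1.51). By this measure the centromere side lost more points in every pairing, from a higher full-length mean (5.70% against 3.46%). The losses relative to these means were not compared.

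The share of windows with a level of at least 10% separated the groups more widely than the mean level did. On the arm side 7.88% and 7.57% of windows were at or above 10% in nrpd1-3, 12.2% and 11.7% with NRPD1ΔCTD, and 13.9% in both full-length libraries. On the centromere side the shares were 17% and 16.3%, 22.9% and 22.7%, and 25.6% and 25%. The groups did not overlap on either side. Between nrpd1-3 and full-length NRPD1 the share differed by -6.16 points on the arm side and -8.67 points on the centromere side (exact permutation p of 0.33 each).

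**Figure D1:**
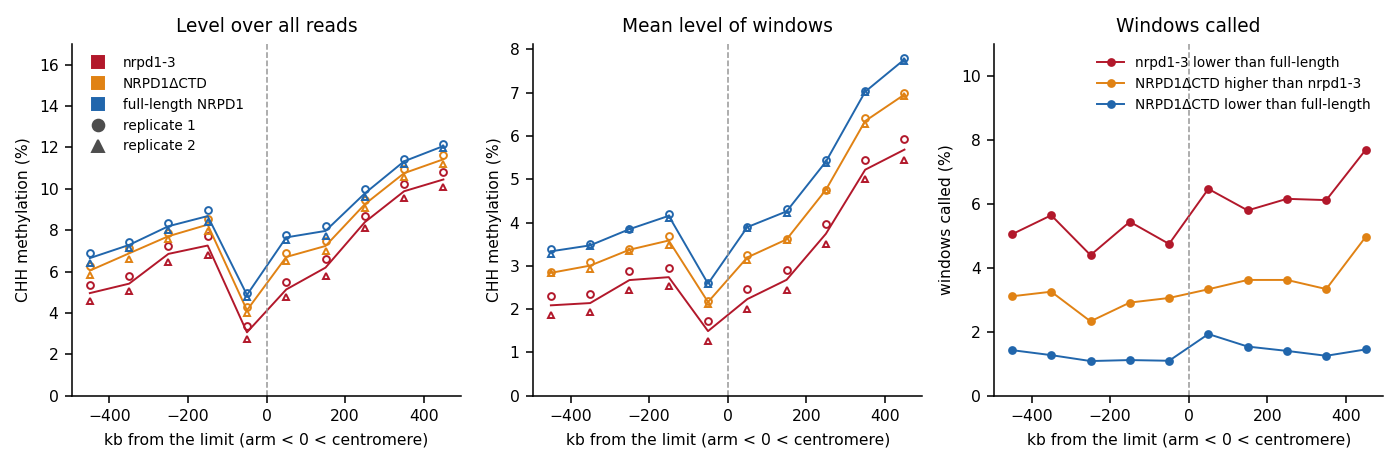
CHH methylation (%) in steps of 100 kb across the 10 borders, plotted at the step's distance in kb from the pericentromere limit (arm side negative, dashed line at the limit), as the level over all reads (left) and the mean level of windows (middle), with lines for group means and a circle and a triangle for replicates 1 and 2, and the percentage of windows called in 3 comparisons (right). Both nrpd1-3 points lie below both full-length points in every step of the first panels, as in the step just outside the limit with 3.37% and 2.76% against 4.96% and 4.79%, and the share of windows called lower in nrpd1-3 runs from 4.40% to 7.68%.

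Along the borders the level did not climb steadily. In the outermost 100 kb of the arm side it was 5.33% and 4.59% in nrpd1-3, 6.27% and 5.83% with NRPD1ΔCTD, and 6.88% and 6.43% with full-length NRPD1. The second 100 kb outside the limit was higher, at 7.72% and 6.79%, 8.56% and 7.98%, and 8.96% and 8.40%. The 100 kb just outside the limit was the lowest of the 10 steps in all 6 libraries, at 3.37% and 2.76%, 4.27% and 4.00%, and 4.96% and 4.79%. At 8 of 10 borders every library was lower in the last 100 kb before the limit than in the 100 kb before that. Of the covered windows in the last step before the limit, 43.5% were in coding exons, 23.7% were intergenic and 4.47% were in pseudogenes. In the innermost 100 kb the shares were 22.0%, 37.8% and 22.5%. In intergenic windows alone, the last 100 kb before the limit read 12.2% and 12.3% with full-length NRPD1 and the 100 kb before that read 11.5% and 11%. In intergenic windows of nrpd1-3 the same steps read 5.14% and 4.73% against 6.09% and 5.53%. By the mean of intergenic windows, the step just outside the limit was the lower in all libraries at 5 of 10 borders and the higher in all at 2.

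Borders differed in level, and nearly all shared the loss. On the arm side nrpd1-3 was below full-length NRPD1 in all libraries at 10 of 10 borders, with differences of -2.37 to -0.732 points. On the centromere side this held at 9 of 10 borders, and the differences were -2.41 to -0.0585 points. In the level over all reads the centromere side was above the arm side in all libraries at 8 of 10 borders. By the same measure the right border of chromosome 5 was the reverse, with 8.97% and 8.17% on the arm side and 7.33% and 6.75% on the centromere side in nrpd1-3, and 9.98% and 9.71% against 9.22% and 9.12% with full-length NRPD1. This order turned with every window given equal weight, where the centromere side was the higher in all libraries at 10 of 10 borders, with 5.10% and 5.12% against 4.33% and 4.37% at this border with full-length NRPD1. By the share of windows at or above 10% the centromere side was higher in all libraries at 9 of 10 borders and lower in all at 0. In the level over all reads the left border of chromosome 2 was nearly flat, with 6.70% and 6.35% on the arm side and 6.68% and 6.56% on the centromere side with full-length NRPD1.

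The exception was the centromere side of the left border of chromosome 4. Its level was 11.4% and 10.8% in nrpd1-3, 11.1% and 10.8% with NRPD1ΔCTD, and 11.2% and 11.1% with full-length NRPD1, and the 3 groups overlapped. Even so, the share of its windows at or above 10% was 39.0% and 38.2% in nrpd1-3 and 43.8% and 42.1% with full-length NRPD1, without overlap. The short arm side of the same border, between the knob and the limit, was the lowest of all sides at 1.54% and 1.04% in nrpd1-3, 2.29% and 2.01% with NRPD1ΔCTD, and 3.32% and 3.14% with full-length NRPD1. There only 0.576% of windows reached 10% in each nrpd1-3 library, against 8.65% and 7.49% with full-length NRPD1. Without this border the rise from arm to centromere side was 2.21 points in nrpd1-3, 2.38 with NRPD1ΔCTD and 2.63 with full-length NRPD1.

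**Figure D2:**
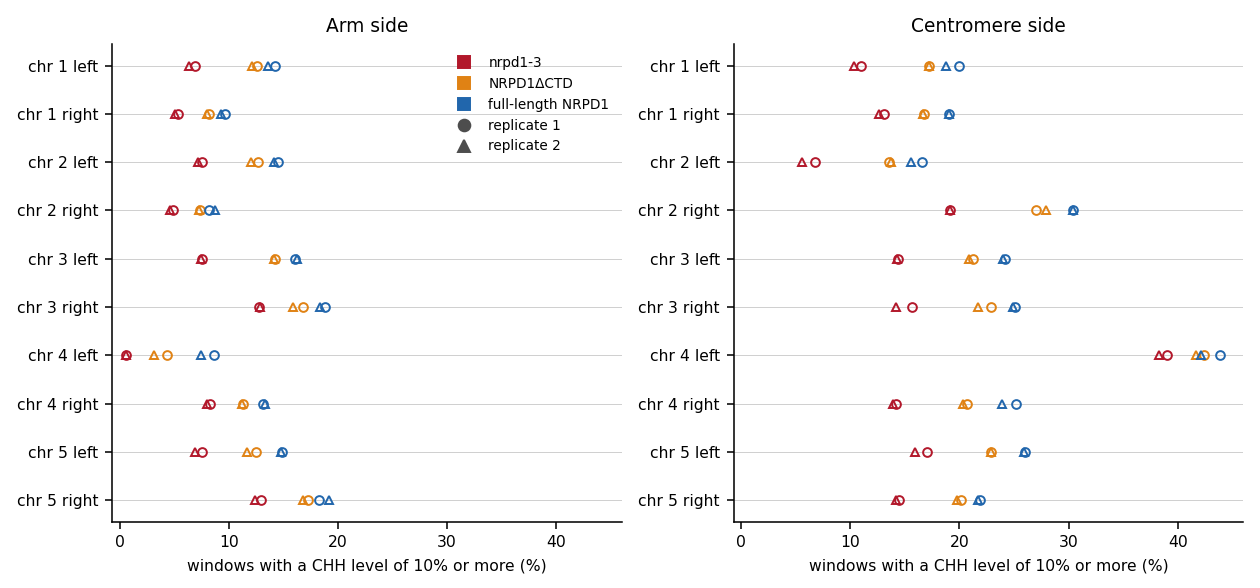
Percentage of windows with a CHH level of 10% or more on the arm side (left) and the centromere side (right) of each of the 10 borders, coloured by group, with a circle for replicate 1 and a triangle for replicate 2. The nrpd1-3 points lie to the left of the full-length points on all 20 sides, from the arm side of the left border of chromosome 4 (0.576% against 8.65% and 7.49%) to its centromere side (39.0% and 38.2% against 43.8% and 42.1%).

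The borders were next set against the chromatin that adjoins them. In the core of the pericentromeres, more than 500 kb inside the limits, the level was 12.2% and 11.5% in nrpd1-3 and 12.3% and 12.1% with full-length NRPD1, which overlapped (exact permutation p = 0.667). In the chromosome arms it was 2.53% and 1.89% against 2.85% and 2.67%. Borders minus core was -4.55 and -4.65 points in nrpd1-3, -3.78 and -3.94 points with NRPD1ΔCTD, and -3.22 and -3.37 points with full-length NRPD1. These gaps did not overlap between groups, and the gap in nrpd1-3 differed from that with full-length NRPD1 by -1.31 points (exact permutation p = 0.33). Borders minus arms was 5.10 and 5.0 points in nrpd1-3, 5.90 and 5.69 points with NRPD1ΔCTD, and 6.23 and 6.06 points with full-length NRPD1. Here nrpd1-3 differed from full-length NRPD1 by -1.10 points (exact permutation p = 0.33). In points, the borders thus lost more than the core and more than the arms in every pairing of libraries. A difference taken within a library is free of a shift that all its regions share. The arms lost -0.553 points from a full-length mean of 2.76%, and the borders -1.65 points from a full-length mean of 8.91%.

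Single windows were then tested by logistic regression of methylated and unmethylated reads on the group, with Benjamini-Hochberg adjustment over all 278507 windows. A window was called when the adjusted p was 0.01 or less and the groups differed by at least 10 points. In nrpd1-3, 1216 border windows (5.78%) were lower than with full-length NRPD1, against 2.44% of all windows. The called windows had a median difference of -18.1 points, and in all 1216 both nrpd1-3 libraries were below both full-length libraries, which at any size of difference was the case in 27.0% of border windows and 19.2% of all windows. The median over all border windows was -0.0269 points, since most windows had little methylation in any group. The share called was 5.05% on the arm side, where 511 windows were called, and 6.45% on the centromere side, where 705 were. In the core it was 3.98% and in the arms 1.62%. Among windows with a level of 10% or more with full-length NRPD1 the order of the sides was the reverse. Of 1420 such windows on the arm side 35.99% were called, and of 2790 on the centromere side 25.27% were. In the core 7.09% of such windows were called and in the arms 42.1%. A call itself needs a level of at least 10% with full-length NRPD1. These shares are thus drawn from the values that the call uses and are a description only. The borders hold 7.55% of the covered windows and held 17.9% of the windows called lower. The opposite call, higher in nrpd1-3, was made in 3 border windows against a background of 0.0162% of all windows.

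The logistic regression counts reads and does not model the spread between libraries, which makes its p-values small. When the likelihood-ratio statistic was divided by one dispersion estimated from the replicates, an alternative chosen after seeing the data, 1185 border windows were called lower. Over all windows 6513 were. With limma on arcsine-transformed levels, 0 were called at an adjusted p of 0.01. There 3074 border windows (14.6%) were lower at an unadjusted p under 0.05, against 8.06% of all windows, and 614 (2.92%) were higher, against 3.28% of all windows. At an adjusted p of 0.05, 325 border windows were lower by at least 10 points, which was the case for 0.608% of all windows. In the called windows the libraries also differed in depth, the mean coverage of a cytosine being 13.7 and 13.8 in nrpd1-3, 15.9 and 16.6 with NRPD1ΔCTD, and 18.2 and 17.6 with full-length NRPD1. In border windows not called the values were 16.3 and 16.7, 15.5 and 16.6, and 16.5 and 16.3. The part of depth in the calls was not tested beyond the stricter read minimum given among the alternatives.

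Called windows occurred in every step of the borders, and most runs of adjoining called windows held only 1. The share called was lowest 200 to 300 kb outside the limit, at 4.40%, and highest in the innermost 100 kb, at 7.68%. The 1216 windows formed 841 runs of adjoining windows, of which 602 were single windows, 164 were pairs and 75 held 3 or more. The longest run was of 10 windows at chr2:7581301-7584300 on the arm side, and the longest on a centromere side was of 7 windows at chr2:1011001-1013100. The centromere side of the right border of chromosome 3 had the highest share of all sides, with 95 of 1028 windows called (9.24%), and the arm side of the right border of chromosome 1 had the lowest, with 36 of 1157 (3.11%). Among the 97 single steps of 100 kb, chr3:10900001-11000000 had the highest share, with 23 of 173 windows (13.3%), and chr4:2950001-3050000 the lowest, with 1 of 308 (0.325%). In the latter the nrpd1-3 level of 11.9% and 11.4% was above the full-length level of 11.1% and 11.2%.

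The mutant kept little methylation in the called windows, which the call itself favours. The called windows had a median of 2.40% in nrpd1-3 and of 22.6% with full-length NRPD1. Of them 527 (43.3%) were under 2% in nrpd1-3 and 97 (7.98%) still had 10% or more.

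The losses lay between genes. Of the 1216 called windows 989 (81.3%) were intergenic, and 16.7% of the 5921 intergenic border windows were called. The level in intergenic windows was 7.17% and 6.67% in nrpd1-3, 10.6% and 10.3% with NRPD1ΔCTD, and 12.6% and 12.4% with full-length NRPD1, a difference of -5.59 points between nrpd1-3 and full-length NRPD1 without overlap. In coding exons 27 of 7151 windows (0.378%) were called, and the group means were 1.95%, 1.93% and 2.02%. Introns and untranslated exons were called in 1.72% and 2.33% of windows, and non-coding RNA genes in 6.78% of 369 windows, where the means were 3.47%, 5.62% and 7.14%. Pseudogenes, which in this annotation include many transposon remnants, were the most methylated class and changed little. Their level was 15.6% and 14.9% in nrpd1-3, 15.7% and 15.4% with NRPD1ΔCTD, and 15.8% and 15.6% with full-length NRPD1, and 80 of 2668 windows (3.00%) were called.

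**Figure D3:**
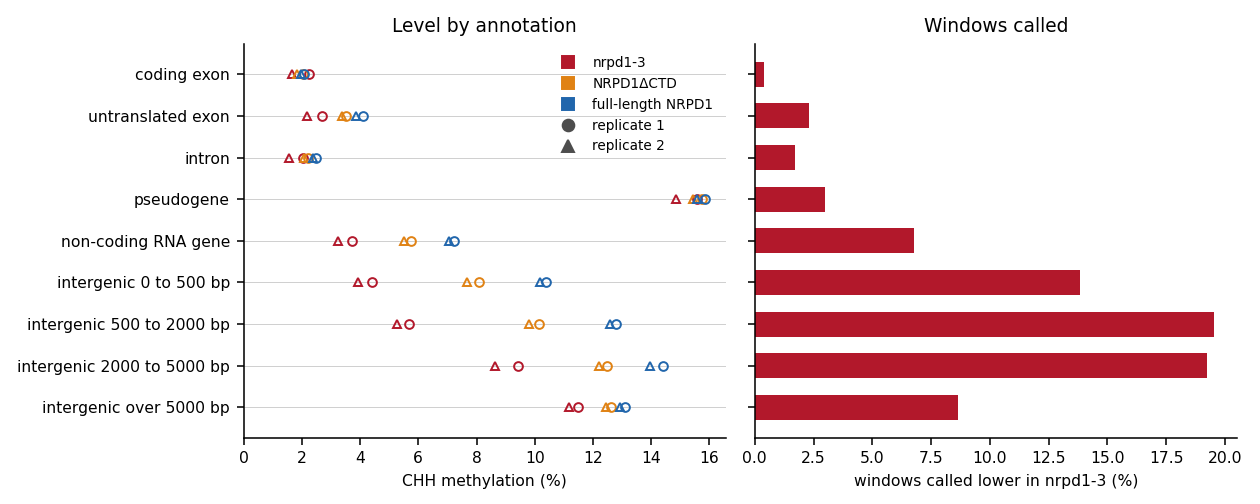
CHH methylation (%) of border windows by annotation class, with a circle and a triangle for replicates 1 and 2 of each group (left), and the percentage of windows of each class called lower in nrpd1-3 as bars (right), with intergenic windows split by their distance from a protein-coding gene. Intergenic windows between 500 and 2000 bp from a gene combine a wide gap between groups with 19.5% of windows called, while pseudogene windows lie between 14.9% and 15.8% in all libraries.

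Intergenic losses were greatest at a middle distance from genes. Between 500 and 2000 bp from a protein-coding gene 19.5% of intergenic windows were called, with group means of 5.47% ± 0.295 in nrpd1-3, 9.97% ± 0.233 with NRPD1ΔCTD and 12.7% ± 0.133 with full-length NRPD1 (SD, n = 2). Within 500 bp 13.8% were called, and between 2000 and 5000 bp 19.3% were. Beyond 5000 bp the share was 8.66%, with means of 11.3%, 12.5% and 13.0%. The mutant thus had its highest intergenic level farthest from genes, where it differed from full-length NRPD1 by -1.68 points, against -7.22 points between 500 and 2000 bp. Within 2000 bp of the nearest gene, 17.9% of windows on its upstream side and 16.0% of windows on its downstream side were called. Called intergenic windows had a median of 31.0% GC and intergenic windows not called had 33.7%, while over all border windows, where those not called are mostly genic, the medians were 31.7% and 38.0%. These values were looked up after the calls were known and are given as a description.

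The 9 CHH contexts, told apart by the bases after the cytosine, were affected unequally. As background, CMT2 is known to favour CAA and CTA, while DRM2 shows weaker preference. Over all border reads the level at CAA was 17% in nrpd1-3, 18.5% with NRPD1ΔCTD and 19.1% with full-length NRPD1, and at CCC it was 1.03%, 1.82% and 2.42%. The level at CAA and CTA divided by that at the other 7 contexts was 4.35 and 4.70 in nrpd1-3, 3.99 and 4.06 with NRPD1ΔCTD, and 3.69 in both full-length libraries. This ratio did not overlap between groups and was highest in the mutant (exact permutation p = 0.33). It was also higher on the centromere side than on the arm side in every library, from 3.85 against 3.40 in the full-length means to 4.70 against 4.18 in nrpd1-3. In the windows called lower, the ratio was 3.70 and 3.77 in nrpd1-3, 1.83 and 1.87 with NRPD1ΔCTD, and 1.66 and 1.65 with full-length NRPD1. There the level at CAA was 10.5% in nrpd1-3 and 35.6% with full-length NRPD1, while at CCC it was 1.77% and 17.4%. These windows were picked by the same levels, so the values only describe them. In border windows not called the ratio was 4.38 and 4.73 in nrpd1-3, 4.43 and 4.49 with NRPD1ΔCTD, and 4.33 in both full-length libraries. There nrpd1-3 and NRPD1ΔCTD overlapped.

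The second comparison was what NRPD1ΔCTD gave back. In 711 border windows (3.38%) NRPD1ΔCTD was higher than nrpd1-3, against 1.5% of all windows, by a median of 16.7 points. In 710 of these the libraries of the groups did not overlap, as in 24.0% of border windows and 18% of all windows at any size of difference. The arm side had 297 such windows (2.94%) and the centromere side 414 (3.79%), while the core was at 2.37% and the arms at 1.03%. The opposite call was made in 2 border windows, against 0.00826% of all windows. Intergenic windows made up 593 of the 711 (83.4%). With limma 0 were called. At an unadjusted p under 0.05 it gave 2309 border windows as higher (11%, against 6.35% of all windows) and 627 as lower (2.98%, against 3.3%). The share of the loss that NRPD1ΔCTD regained, taken as its distance from nrpd1-3 over the distance of full-length NRPD1 from nrpd1-3, was 67.7% on the arm side and 60.8% on the centromere side. Over the 8 ways to choose a library from each group it ranged from 34.9% to 93.2% and from 30.5% to 85.0%, so the sides could not be told apart. Counted in windows at or above 10%, the share regained was 68.6% (63.8% to 73.3%) and 71.1% (66.4% to 75.7%). These comparisons share the nrpd1-3 and full-length libraries with the first and are not independent of it.

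The third comparison was what NRPD1ΔCTD still lacked. It was lower than full-length NRPD1 in 286 border windows (1.36%), against 0.541% of all windows, with a median difference of -13.3 points, and in 280 of these the groups did not overlap, as in 22.0% of border windows and 17.7% of all windows at any size of difference. The arm side had 121 (1.20%) and the centromere side 165 (1.51%), against 0.577% in the core and 0.444% in the arms. Of the 286, 240 (83.9%) were intergenic. Of the 3 large counts this was the one most reduced when the statistic was divided by one dispersion, to 171 windows. Over all windows that count was 910. With limma 0 were called. At an unadjusted p under 0.05 it gave 1690 border windows as lower (8.03%, against 5.30% of all windows) and 578 as higher (2.75%, against 3.03%). NRPD1ΔCTD was higher than full-length NRPD1 in 2 border windows, against 0.014% of all windows. In the levels of whole sides, NRPD1ΔCTD minus full-length NRPD1 was -0.520 points on the arm side and -0.655 points on the centromere side. At the arm side of the right border of chromosome 5, the NRPD1ΔCTD libraries read 9.90% and 9.49% and overlapped those of full-length NRPD1 at 9.98% and 9.71%. In the level over all reads this side had the highest regained share, 88.1% (51.8% to 125% over the choices of libraries). Counted in windows at or above 10% its share was 71.7%, below the 79.1% at the arm side of the left border of chromosome 1.

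The windows with the largest loss on each border side, with at least 20 cytosines, show the pattern at single sites. They were picked from the called windows in which nrpd1-3 and full-length libraries did not overlap. Low nrpd1-3 levels and a wide gap to full-length NRPD1 therefore follow from the choice. The largest of all was chr3:10514101-10514400, on the arm side of the left border of chromosome 3, intergenic and 384 bp downstream of AT3G28193. Its CHH level was 2.28% and 3.13% in nrpd1-3, 46.3% and 52.2% with NRPD1ΔCTD, and 59.0% and 63.7% with full-length NRPD1. The mutant had almost nothing at this window, NRPD1ΔCTD lay between and was called lower than full-length NRPD1 by -11.9 points (logistic regression, adjusted p = 1.12e-26), and no groups overlapped. Pooled reads differed by -58.3 points between nrpd1-3 and full-length NRPD1 (logistic regression, adjusted p = 6.66e-276). They numbered 438 and 479 in nrpd1-3, 2109 and 1965 with NRPD1ΔCTD, and 2831 and 2191 with full-length NRPD1. On the centromere side the largest loss was at chr3:16066801-16067100, 443 bp downstream of AT3G44428, with 2.25% and 1.81%, 45.9% and 43.5%, and 56.0% and 55.3%, a difference of -53.6 points (adjusted p = 3.13e-210).

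The window at chr1:18019501-18019800 showed that such a loss could lie within a gene, since it is in an intron of AT1G48725. Its level was 1.18% and 0.410% in nrpd1-3, 49.5% and 42.5% with NRPD1ΔCTD, and 55.1% and 60.0% with full-length NRPD1. At chr4:6529501-6529800, 1320 bp upstream of UBP9, a ubiquitin-specific protease gene, the level was 5.43% and 2.68%, 54.3% and 51.5%, and 59.2% and 53.0%. NRPD1ΔCTD and full-length NRPD1 overlapped there (adjusted p = 0.0845). The window at chr5:9189001-9189300, 275 bp upstream of CLC-D, which encodes a chloride channel family protein, was the most methylated of these, at 21.4% and 26.5% in nrpd1-3, 68.1% and 70.6% with NRPD1ΔCTD, and 72.8% and 72.7% with full-length NRPD1. The mutant values there were near the median of 22.6% that called windows had with full-length NRPD1.

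Other windows of this set lay upstream of genes with known roles. At chr1:12166801-12167100, 1818 bp upstream of ADR1, a gene of the plant immune receptor family, the level was 2.79% and 1.32% in nrpd1-3, 25.4% and 29.3% with NRPD1ΔCTD, and 39.2% and 34.6% with full-length NRPD1. At chr1:17874001-17874300, 286 bp upstream of YSL8, of a family of metal-chelate transporters, it was 5.22% and 6.09%, 28.7% and 29.3%, and 41.5% and 42.1%. At chr2:6892201-6892500, 941 bp upstream of OTP51, which encodes a protein for splicing of a chloroplast transcript, it was 6.53% and 5.77%, 40.5% and 44.3%, and 50.3% and 51.5%. All 3 had the same order of groups, and NRPD1ΔCTD overlapped neither of the others. Over the 20 windows, one from each side of each border, nrpd1-3 was at or under 12.7% in all but the CLC-D window. NRPD1ΔCTD lay between the other groups in mean at each. The choice of windows by their gap favours both. With limma, which uses the spread between libraries, the adjusted p of the losses at these 20 windows was 0.0382 to 0.0750. The expression of these genes was not measured in these libraries.

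**Figure D4:**
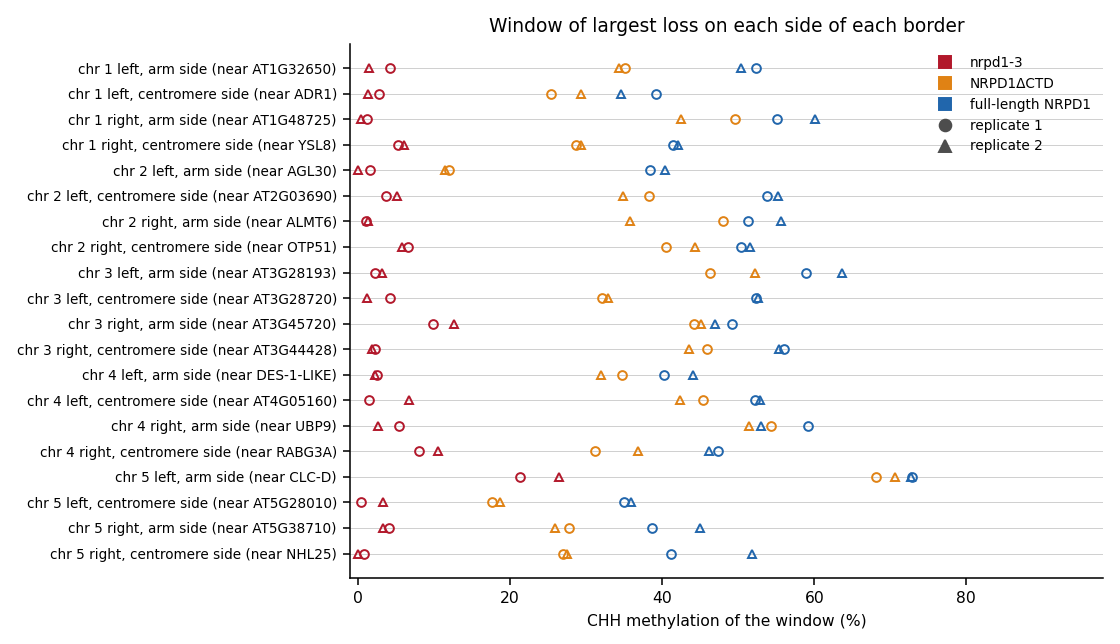
CHH methylation (%) at the window of largest loss on each side of each border, labelled with the gene nearest to or over it, coloured by group, with a circle for replicate 1 and a triangle for replicate 2. The nrpd1-3 points lie at or under 12.7% except at the window near CLC-D (21.4% and 26.5%), and the NRPD1ΔCTD points lie between the other groups or, near UBP9, among the full-length points.

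The windows in which NRPD1ΔCTD fell furthest below full-length NRPD1 were all on arm sides. At chr2:600601-600900, in an intron of PP2-B4, of the phloem protein 2 family, the level was 0% and 0.375% in nrpd1-3, 7.26% and 8.81% with NRPD1ΔCTD, and 39.3% and 35.5% with full-length NRPD1. At chr2:904501-904800, 501 bp downstream of AGL30, a MADS-box transcription factor gene, it was 1.56% and 0%, 11.9% and 11.5%, and 38.4% and 40.4% (adjusted p for NRPD1ΔCTD against full-length NRPD1 = 4.41e-83). At chr3:16814101-16814400, 2471 bp upstream of PHOT1, the gene of a blue light receptor, it was 0.977% and 2.28%, 7.26% and 7.03%, and 33.3% and 36.4%. In each, both NRPD1ΔCTD libraries were above both nrpd1-3 libraries and far below full-length NRPD1, the latter being the rule by which they were picked. Reads at the AGL30 window numbered 257 and 224 in nrpd1-3, 637 and 514 with NRPD1ΔCTD, and 4029 and 4317 with full-length NRPD1. The part of this unevenness in the difference was not tested.

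A few windows went against the main direction. Only 1 window met the rule for NRPD1ΔCTD above full-length NRPD1, chr5:9091201-9091500, at 24.4% and 27.4% in nrpd1-3, 36.2% and 27.2% with NRPD1ΔCTD, and 21.8% and 20.8% with full-length NRPD1. Without NRPD1ΔCTD replicate 1 the difference was 5.83 points in place of 10.2, under the limit of 10. Among border windows with at least 20 cytosines, the highest nrpd1-3 level was at chr4:2895601-2895900, intergenic on the centromere side, at 49.4% and 58.2% in nrpd1-3, 43.3% and 46.8% with NRPD1ΔCTD, and 27.3% and 49.0% with full-length NRPD1. Both nrpd1-3 libraries were just above both full-length libraries, and the gap of 13.8 points was 4.85 points without full-length replicate 1. At chr1:12017101-12017400, in the pseudogene AT1G33130, all groups were alike at 41.2% and 39.9%, 45.0% and 37.4%, and 47.5% and 38.4% (adjusted p = 0.291 for nrpd1-3 against full-length NRPD1). The other windows higher in nrpd1-3 were chr1:18026701-18027000 in the non-coding RNA gene AT1G48742, at 12.9% and 13.9% against 0% and 3.31%, and chr5:14827201-14827500 in the pseudogene AT5G37383, where the nrpd1-3 libraries themselves differed, at 16.9% and 41.5%.

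Genes of DNA methylation and the loci that the study tested for silencing were looked up in the borders. Of 29 DNA methylation genes, 2 lie there. RDR2, the partner polymerase of Pol IV (chr4:6780449-6784632, arm side), had levels of 1.07% and 0.241% in nrpd1-3, 0.298% and 0.520% with NRPD1ΔCTD, and 0.476% and 0.369% with full-length NRPD1, and 0 of its 15 windows were called. DRD1, a chromatin remodeller that acts with Pol V in the same pathway (chr2:7097280-7101351, centromere side), also had 0 of 15 called, at 1.23% and 0.395%, 0.408% and 0.402%, and 0.374% and 0.737%. In both genes nrpd1-3 replicate 1 was the highest library and replicate 2 was below most of the others, so the libraries overlapped. Of 5 study loci with gene identifiers, 2 lie in the borders. SDC, an F-box gene silenced by DNA methylation (chr2:7682162-7684083, arm side), had 2 of 8 windows called lower in nrpd1-3, with a level of 0.707% and 0.90% in nrpd1-3, 2.44% and 3.27% with NRPD1ΔCTD, and 6.70% and 4.37% with full-length NRPD1. ERT7 (AT3G28899, chr3:10902184-10902515, centromere side) had 2 of 2 windows called, at 2.11% and 2.98%, 15% and 14.4%, and 25% and 27.1%.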

How the data were processed

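DNA from above-ground tissue was bisulfite-converted and sequenced by the authors. According to the submitters' processing notes and the study's methods, base calling and adapter trimming used bcl2fastq 2.16.0.10, end trimming used cutadapt 1.9.1, and reads were mapped to TAIR10, stripped of PCR duplicates and called for cytosines with at least 5 reads with Bismark 0.16.1, and methylKit 0.9.5 was used downstream. The deposited files list, for each CHH cytosine and library, the read count (coverage) and the percent of reads methylated and unmethylated, as the authors made them. The product of count and percent gave whole methylated reads, to within 1.5e-04 of a read in every library. No column was left unused for lack of a sample (0 columns).

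Reads were summed in windows of 300 bp counted from base 1 of each of 5 nuclear chromosomes, and a window was covered when it had at least 10 cytosines in each of 6 libraries. Windows were placed and annotated by their midpoint on RefSeq TAIR10.1, whose bases are CHH at 99.9999% of the listed cytosines. A level is the methylated share of all reads of a region. Group differences in levels were tested with two-sided exact permutation tests over libraries. Windows were tested by logistic regression with a likelihood-ratio test and Benjamini-Hochberg adjustment over all 278507 windows, which differs from the study's overlapping windows and its SLIM correction. The windows named are the largest loss on each side of each border, the 3 with NRPD1ΔCTD furthest below and above full-length NRPD1, and the 3 highest in nrpd1-3, all with at least 20 cytosines in every library. Except for those highest in nrpd1-3, they were taken among called windows in which the libraries of the compared groups did not overlap. Where these rules gave fewer, all were named. The opposite-direction calls, the extreme border sides and the extreme steps of 100 kb were named after their values were seen. Members, gene lists and tests were chosen with earlier results of these data known. The logistic regression, its fit with the replicate number as a block and the F test were run on simulated data. Limma and the test with one dispersion were not. Alternatives were other read and cytosine minimums, shifted windows, coverage limits, other tests (limma 3.58.1 in R 4.3.3 among them), narrower borders and each library left out, besides those named as chosen after seeing the data. Python 3.11.15, NumPy 2.4.6, SciPy 1.17.1, pandas 2.3.3 and Matplotlib 3.10.9 were used. The percent intervals of levels (Wilson, 95%) cover counting error only. Transposon annotation was not used here, so transposons are seen only as pseudogenes or intergenic sequence.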

Additional observations from a re-analysis of the deposited data

How the results depend on the processing

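The losses and regained shares of both sides kept their direction in all alternatives run. Leaving out 1 library in turn gave regained shares of 54.5% to 80.8% on the arm side and 48.1% to 73.5% on the centromere side. Counts of called windows depended on the thresholds and on the test, and the cause was not tested except where the alternative tests fewer windows by construction. In the order lower in nrpd1-3 than with full-length NRPD1, higher in nrpd1-3, NRPD1ΔCTD lower than nrpd1-3, NRPD1ΔCTD higher than nrpd1-3, NRPD1ΔCTD lower than full-length NRPD1 and NRPD1ΔCTD higher than full-length NRPD1, the counts were 1216, 3, 2, 711, 286 and 2. With at least 10 reads per cytosine they were 612, 0, 1, 334, 126 and 1. With at least 20 cytosines per window they were 672, 2, 2, 392, 120 and 1, and with a difference of at least 20 points 530, 0, 0, 236, 31 and 0. Dividing by one dispersion gave 1185, 3, 1, 670, 171 and 1, against 6513, 38, 17, 3887, 910 and 20 over all windows. For the read and cytosine minimums and the limit of 20 points, counts over all windows are not given here. With windows shifted by 150 bp the third count was 0, and with only the cytosines listed in all 6 libraries the second was 1. Limma and an F test with a dispersion for each window gave 0 in all 6. At an unadjusted p under 0.05 with limma the counts were 3074, 614, 627, 2309, 1690 and 578, and with the F test 1718, 41, 29, 1097, 348 and 5. The unadjusted F test counts were 8.17%, 0.195%, 0.138%, 5.21%, 1.65% and 0.0238% of border windows. Over all windows the shares were 3.68%, 0.219%, 0.126%, 2.39%, 0.682% and 0.046%. The F test also recovered none of the changed windows by adjusted p on simulated data, so its counts of 0 say nothing. Its unadjusted counts were not scored there.

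Leaving out 1 library in turn gave 1197 to 1240, 2 to 32, 0 to 29, 702 to 744, 283 to 317 and 1 to 7 calls. The 32 windows higher in nrpd1-3 and the 29 lower in NRPD1ΔCTD than in nrpd1-3 both came without nrpd1-3 replicate 2, when replicate 1 alone stood for the mutant. Without nrpd1-3 replicate 1 the windows higher in nrpd1-3 were 6. The 7 windows with NRPD1ΔCTD above full-length NRPD1 came without NRPD1ΔCTD replicate 2, 6 came without full-length replicate 2, and 1 without full-length replicate 1. Replicate numbers did not pair the samples, with correlations of deviations at the borders of 0.0259, 0.00724 and -0.0194, and a fit with the replicate number as a block gave 1216, 3, 2, 712, 284 and 2 calls and changed no call at a named window.

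The rise from arm to centromere side was 2.88 points in nrpd1-3, 2.81 with NRPD1ΔCTD and 2.94 with full-length NRPD1. It was 2.70, 2.47 and 2.66 with at least 10 reads per cytosine, 2.81, 2.75 and 2.88 with shared cytosines, and 1.72, 2.02 and 2.23 with equal window weights. With borders of 250 kb it was 1.06, 1.29 and 1.46, and without the left border of chromosome 4 it was 2.21, 2.38 and 2.63. In NRPD1ΔCTD it was 2.78 with at least 20 cytosines, 2.78 with shifted windows and 2.82 without cytosines of extreme coverage. At named windows 2 differences changed sign without 1 library, both between nrpd1-3 and full-length NRPD1 and both short of the call to begin with. At chr2:1085401-1085700 the difference of -1.91 points became 5.25 without nrpd1-3 replicate 1, 5.52 without full-length replicate 2 and -12.1 without nrpd1-3 replicate 2. At chr1:12017101-12017400 the difference of -2.41 points became 2.23 without full-length replicate 1 and -6.86 without full-length replicate 2. Levels at single windows rest on 123 to 4317 reads, with Wilson 95% intervals of up to 10.4 points.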
